A study of Mus musculus with 8 samples.

Results

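Long noncoding RNAs are transcripts that act as RNA or through their transcription, without a long conserved protein-coding frame. The 8 described here are Malat1, Neat1, Meg3, Miat, Six3os1, Tug1, Rmst and Snhg11, taken by symbol from a list of well-known neural and nuclear long noncoding RNAs, out of 26824 genes in the deposited table. All 8 were in the table and all 8 passed the filter on low counts, which 20167 genes passed. The retinas came from 3 mice labelled WT and 5 mice labelled KO for Kv8.2, the potassium channel subunit encoded by Kcnv2. All mice were untreated and 1 month old, and each library was made from the 2 pooled retinas of a mouse. Both retinal groups were labelled only by genotype. The strain, the sex, the knockout allele and whether any other allele was shared by the groups are not given in the sources used here.

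Of the 8 RNAs, 1 passed the test between the groups: Snhg11, a small nucleolar RNA (snoRNA) host gene, was lower in every KO library than in every WT library, at 0.616 of the WT level. That order of groups was found in 10.1% of all tested genes, and 7.58% passed the test. The other 7 had fitted values below WT that did not pass. Among them, Six3os1, Tug1 and Rmst were below every WT library in KO 4, KO 5 and KO 6 and not in KO 2 and KO 3 together, while Meg3 was below every WT library in KO 2 and KO 3 and not in the other 3. Over all tested genes, KO 4 to KO 6 were all below every WT library in 26.5% and KO 2 and KO 3 both in 18.9%. The difference between these 2 sets of libraries was not tested.

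As background, Malat1 and Neat1 are nuclear RNAs transcribed from neighbouring genes. Malat1 gathers in nuclear speckles, compartments rich in splicing factors, and Neat1 is the RNA scaffold of paraspeckles. Miat, also named Gomafu, was described as a nuclear RNA of neurons, including retinal neurons. Meg3 is transcribed from the maternal allele of an imprinted domain, Six3os1 from the strand opposite the eye-field gene Six3, Tug1 was found as a taurine-responsive RNA of the developing retina, and Rmst is a neural RNA known as a partner of SOX2.

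The data are estimated read counts per gene, 17759146 to 25188870 per library. Levels are counts per 1000000 counts of the library (CPM) after TMM scaling, the trimmed mean method of edgeR, and values listed for a group follow the library numbers. Fold changes are log2 values of KO against WT, tested by edgeR's quasi-likelihood method and adjusted by Benjamini-Hochberg over all tested genes. A gene is called at an adjusted p under 0.05. Rod markers summed to 48438 to 52578 CPM in WT and 42875 to 62475 CPM in KO, as a retina should give. Kcnv2 was present in every library, at 519 to 551 CPM in WT and 398 to 585 CPM in KO (log2 fold change -0.24, SE 0.14, adjusted p = 0.275). KO 3 to KO 6, at 398 to 447 CPM, were below every WT library and KO 2 was above them. The value for KO 4 to KO 6 was -0.38 (adjusted p = 0.000116), that for KO 2 and KO 3 was -0.04 (adjusted p = 0.903), and without KO 2 it was -0.35 (adjusted p = 0.0298). The fit without KO 2 called 2781 of 20026 tested genes. No library lacked the transcript, so KO below means the libraries labelled KO. KO 4, KO 5 and KO 6 stood apart: mitochondrial transcripts took 3.03% to 3.70% of their counts, against 5.23% and 6.52% in KO 3 and KO 2 and 7.09% to 7.92% in WT. Lens crystallin and membrane genes took 4.98% of the counts of KO 3 and at most 0.169% in the other libraries. The labels name no batch, and KO 4 to KO 6 hold no WT library, so handling of these 3 libraries and their label cannot be told apart. The main results are therefore also given for KO 2 and KO 3 against WT and for KO 4 to KO 6 against WT. Those sets were formed from the data.

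**Figure D1:**
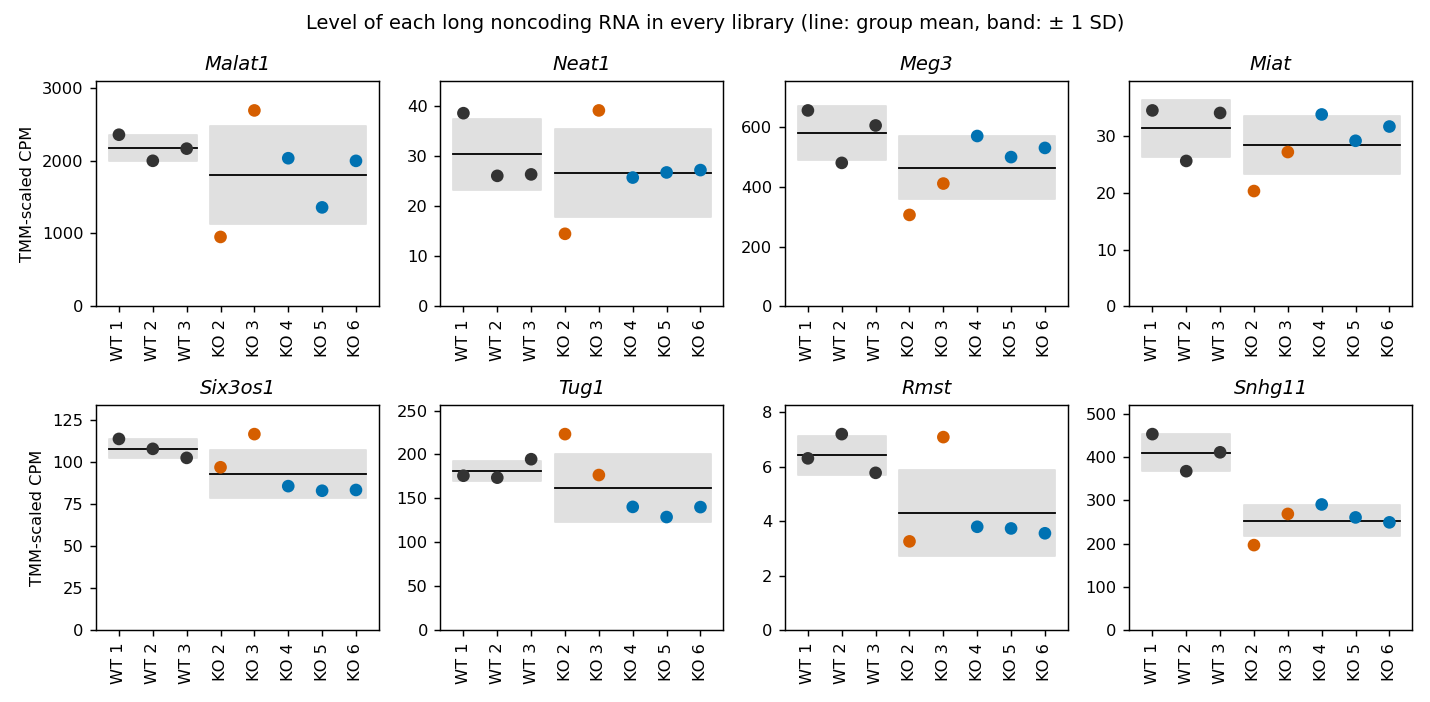
TMM-scaled CPM (vertical axes, from 0) of each of the 8 RNAs in every library (horizontal axes), with black points for WT, orange for KO 2 and KO 3 and blue for KO 4 to KO 6; lines are group means and bands ± 1 SD. Snhg11 is the panel in which all 5 KO points, 196 to 290 CPM, lie under all 3 WT points, 367 to 453 CPM.

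Malat1 (ENSMUSG00000092341) lies at chr19:5795690-5802672 on the minus strand of GRCm38 and is annotated as a long intergenic RNA. Its longest annotated transcript is unspliced and 6983 bases long. Neat1 (ENSMUSG00000092274) lies next to it, at chr19:5824708-5845478 on the same strand, with a longest transcript of 20771 bases. As background, the long transcripts of both genes end in no ordinary poly(A) tail: their 3′ ends hold T-rich runs that fold with an A-rich tract into a triple helix, which protects the end. These elements are shown because they are the sequence feature that sets these 2 RNAs apart from most messenger RNAs. In the annotated transcripts they were found at chr19:5795982-5796099 and chr19:5824708-5824818, both minus strand and read 5′ to 3′, with the T-rich runs and the A-rich tract in capitals.
Malat1 3′ element: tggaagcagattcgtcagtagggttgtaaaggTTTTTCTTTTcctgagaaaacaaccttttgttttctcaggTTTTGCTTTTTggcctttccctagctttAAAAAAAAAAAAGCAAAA
Neat1 3′ element: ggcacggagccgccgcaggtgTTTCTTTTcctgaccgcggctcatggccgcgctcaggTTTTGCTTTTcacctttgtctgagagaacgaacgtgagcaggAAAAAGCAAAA

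Malat1 stood at 2355, 1997 and 2164 CPM in the WT libraries. It was 952 CPM in KO 2, 2688 CPM in KO 3, 2032 CPM in KO 4, 1358 CPM in KO 5 and 1996 CPM in KO 6. KO 2 and KO 5 were well below the WT range, KO 3 was above it and the remaining KO libraries were within or at its edge, so the groups overlapped. WT averaged 2172 ± 179 CPM (SD, n = 3) and KO averaged 1805 ± 670 CPM (SD, n = 5), and the log2 fold change of -0.27 (SE 0.27, 95% interval -0.86 to 0.33) did not pass the test, with an adjusted p of 0.552. It was -0.25 in KO 2 and KO 3 (adjusted p = 0.745) and -0.26 in KO 4 to KO 6 (adjusted p = 0.112), but -0.10 without KO 2 and -0.45 without KO 3, so the value depended on these 2 libraries. Malat1 alone took 0.0871% of all counts in KO 2 (95% Wilson interval 0.0859% to 0.0882%) and 0.262% in KO 3 (0.260% to 0.264%), a 2.82-fold range in scaled level. These intervals cover counting error only, and the spread between KO libraries was far wider than they are.

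Neat1 was at 38.5, 26.0 and 26.3 CPM in the WT libraries, and at 14.5, 39.0, 25.7, 26.7 and 27.2 CPM in KO 2 to KO 6. As with Malat1, KO 2 was the lowest of the 8 libraries and KO 3 the highest, and KO 4 to KO 6 were close to WT 2 and WT 3. The log2 fold change was -0.19 (SE 0.26, 95% interval -0.76 to 0.38, adjusted p = 0.680), and it was 0.02 without WT 1, -0.03 without KO 2 and -0.36 without KO 3. In both sets of KO libraries it was -0.18 (adjusted p = 0.825 in KO 2 and KO 3, 0.294 in KO 4 to KO 6). The 31-base words of Neat1 were mostly its own, with 2.20% found in another annotated gene, and those of Malat1 likewise, with 6.81%.

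Miat (ENSMUSG00000097767) lies at chr5:112213228-112229395, minus strand. Its longest transcript has 9163 bases and is known for repeats of ACTAAC, a sequence that matches the branch point consensus and is bound by the splicing factor SF1 and by other RNA-binding proteins. The transcript held 11 copies of ACTAAC on its own strand, of which 6 were TACTAAC, or 1.20 per kilobase. The median over 3883 genes with a longest transcript of at least 5000 bases was 0.103 per kilobase, and 0.0515% of these genes were at or above Miat. The densest stretch of 140 bases, with 4 copies, is shown because 0.0226% of the 22121 annotated genes have such a stretch. Malat1 and Rmst held no copy, Meg3, Tug1 and Snhg11 held 1, Six3os1 held 2 and Neat1 held 4. The stretch is at chr5:112217314-112217453, minus strand, with ACTAAC in capitals.
Miat repeat stretch: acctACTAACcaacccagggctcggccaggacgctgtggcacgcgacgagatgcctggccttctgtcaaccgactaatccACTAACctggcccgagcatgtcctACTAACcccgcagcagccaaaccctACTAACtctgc

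Miat stood at 34.6, 25.7 and 34.1 CPM in the WT libraries and 20.4, 27.2, 33.9, 29.2 and 31.8 CPM in KO 2 to KO 6. The groups overlapped, with KO 2 below all 3 WT libraries. The log2 fold change was -0.14 (SE 0.16, 95% interval -0.51 to 0.22, adjusted p = 0.608). Between the 2 sets of KO libraries the value went from -0.40 in KO 2 and KO 3 (adjusted p = 0.255) to 0.02 in KO 4 to KO 6 (adjusted p = 0.908). Without 1 library it ran from -0.26 (without WT 2) to -0.04 (without KO 2). Of its 31-base words 26.9% occur in another annotated gene, mainly a long noncoding gene on the opposite strand, Gm26953, which has no row in the table. Whether the authors' counting used strand is not given in the sources used here, so the Miat level may include reads of that gene.

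The proteins of the compartments these RNAs mark were read from 2 lists. Of 19 tested nuclear speckle proteins and splicing factors, 3 were called lower and none higher, where 2.84% of all tested genes were called lower and 4.74% higher. The median log2 fold change of the list was -0.27, against 0.00 (0.000726) over all tested genes, and 16 of the 19 values were below 0. In 12 of the 19 every KO library was below every WT library, against 10.1% of all tested genes. The called genes were Srsf1, a serine- and arginine-rich splicing factor, Clk1, a kinase of such factors, and Prpf4b, a kinase of the spliceosome. Srsf1 averaged 365 ± 29.5 CPM in the 3 WT and 263 ± 32.7 CPM in the 5 KO libraries (± SD), with a log2 fold change of -0.47 (adjusted p = 0.0408). Clk1 was at 173 ± 18.3 CPM and 114 ± 22.7 CPM, with -0.60 (adjusted p = 0.0497), and Prpf4b had -0.39 (adjusted p = 0.0402). In KO 2 and KO 3 Srsf1, Clk1 and Prpf4b had -0.37, -0.70 and -0.27, and in KO 4 to KO 6 they had -0.53, -0.52 and -0.47. None of the 19 was called in edgeR's test of KO 2 and KO 3, where 0.891% of all tested genes were. In KO 4 to KO 6, 13 of the 19 were called lower and 3 higher, where 20.5% of all tested genes were called lower and 22.3% higher.

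Of 16 paraspeckle proteins, 1 was called higher and none lower, and the median was 0.00 (-0.00261) with 8 values on each side of 0. The called gene was Rbm14, a paraspeckle component that also regulates transcription, which averaged 32.5 ± 3.61 CPM in the 3 WT and 48.1 ± 6.55 CPM in the 5 KO libraries (± SD). It had a log2 fold change of 0.57 (adjusted p = 0.0295), and every KO library was above every WT library, as in 10.8% of all tested genes. It had 0.34 in KO 2 and KO 3 (adjusted p = 0.182) and 0.71 in KO 4 to KO 6 (adjusted p = 2.72e-05). Over all tested genes 4.74% were called higher and 2.84% lower. The next by p-value, Cpsf6, a cleavage factor subunit, had -0.33 (adjusted p = 0.0727), and Tardbp, the gene of the RNA-binding protein TDP-43, had -0.20 (adjusted p = 0.185). In KO 4 to KO 6, 6 of the 16 were called lower and 3 higher, against 20.5% and 22.3% of all tested genes, with Cpsf6 at -0.41 (adjusted p = 9.61e-05) and Tardbp at -0.19 (adjusted p = 0.0160). None of the 16 was called in edgeR's test of KO 2 and KO 3, against 0.891% of all tested genes.

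**Figure D2:**
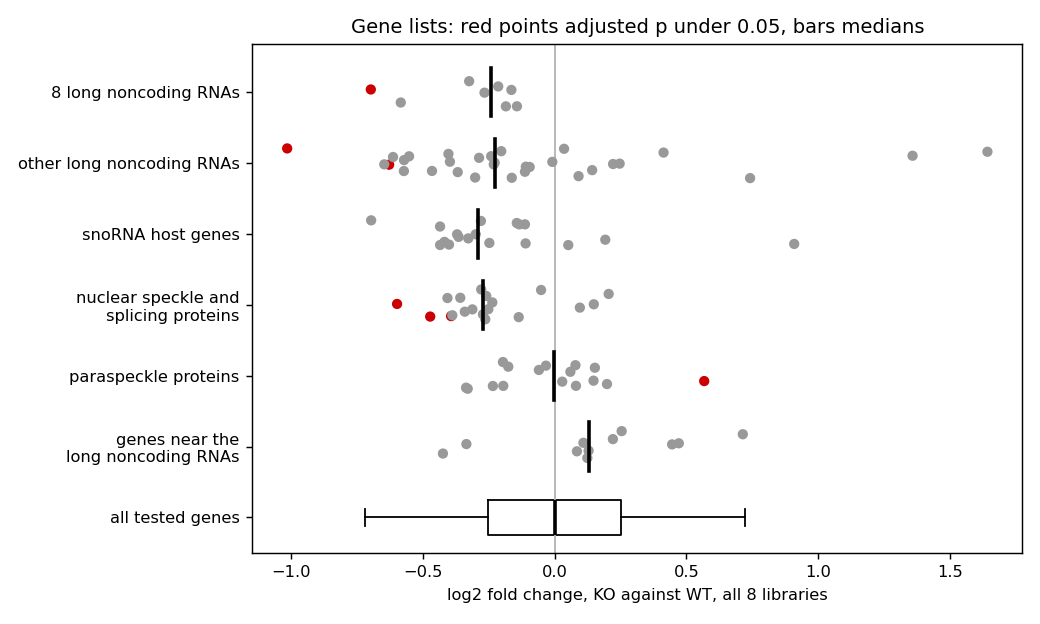
Log2 fold changes of KO against WT from all 8 libraries (horizontal axis) for the 8 RNAs and 5 gene lists; each point is a gene, red where the adjusted p is under 0.05, thick bars are medians, and the box for all tested genes spans the quartiles with whiskers at the outer percentiles. The medians of the 8 RNAs (-0.24), the other long noncoding RNAs (-0.23), the snoRNA hosts (-0.29) and the speckle proteins (-0.27) lie left of 0, and that of the paraspeckle proteins lies at 0.

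Meg3 (ENSMUSG00000021268) lies at chr12:109541001-109571726 on the plus strand, with 11 annotated transcripts of which the longest has 14548 bases. It opens a cluster of noncoding RNAs expressed from the maternal chromosome, followed by Rian and Mirg, which carry snoRNAs and microRNAs. Its promoter is shown because the 3 noncoding RNAs of the cluster were compared. As background, a cyclic AMP response element (CRE) near the start is known to drive Meg3 transcription. The 300 bases at chr12:109540746-109541045, plus strand, from RefSeq (GRCm38.p6) run from 250 bases before the start to 50 after it. They hold the palindromic CRE letters TGACGTCA, 57 bases before the start, and TATAAA, 25 bases before the start, both in capitals. On either strand TGACGTCA occurs in 1.79% of 32851 promoters of this length and TATAAA in 13.6%. The window holds 13 CpG dinucleotides, where the median promoter holds 7. A second Meg3 promoter window, at chr12:109545148-109545447, holds 1 and is not shown.
Meg3 promoter: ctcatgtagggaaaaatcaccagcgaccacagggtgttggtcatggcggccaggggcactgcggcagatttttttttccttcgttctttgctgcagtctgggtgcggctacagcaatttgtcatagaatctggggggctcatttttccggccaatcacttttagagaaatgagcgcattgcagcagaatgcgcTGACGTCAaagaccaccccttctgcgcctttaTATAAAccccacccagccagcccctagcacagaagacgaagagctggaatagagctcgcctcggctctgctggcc

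Meg3 stood at 655, 480 and 605 CPM in the WT libraries and 306, 411, 570, 499 and 530 CPM in KO 2 to KO 6. KO 2 and KO 3 lay under all 3 WT values, and KO 4 to KO 6 were between WT 2 and WT 3. WT averaged 580 ± 90.3 CPM (SD, n = 3) and KO averaged 463 ± 106 CPM (SD, n = 5), with a log2 fold change of -0.32 (SE 0.19, 95% interval -0.75 to 0.10, adjusted p = 0.298). For KO 2 and KO 3 the value was -0.69 (adjusted p = 0.125), where 18.9% of all tested genes had both of these libraries below every WT library and 18% had both above. For KO 4 to KO 6 it was -0.11 (adjusted p = 0.385), and without KO 2 it was -0.21.

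Rian, the next RNA of the cluster, was called lower. It was at 139, 139 and 132 CPM in the WT libraries and at 75.4, 105, 90.3, 85.4 and 86.4 CPM in KO 2 to KO 6, so that all KO libraries were below all WT libraries. Its log2 fold change was -0.63 (SE 0.10, adjusted p = 0.00990), and it was -0.60 in KO 2 and KO 3, which did not pass (adjusted p = 0.0951), and -0.64 in KO 4 to KO 6 (adjusted p = 5.91e-06). Mirg averaged 5.28 ± 0.465 CPM in the 3 WT and 4.01 ± 0.550 CPM in the 5 KO libraries (± SD), with all KO libraries below all WT libraries and a log2 fold change of -0.40 that did not pass (adjusted p = 0.149), nor did -0.53 in KO 2 and KO 3 or -0.30 in KO 4 to KO 6. All 3 RNAs of the cluster thus had values below 0, and 1 of them was called.

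Meg3 also holds microRNAs in its transcribed region, miR-1906 and miR-770, and Rmst holds miR-135a and miR-1251. Their mature forms were not measured here, and they are shown to state what else these 2 host genes carry. Sequences are from RefSeq, in the sense of the host, with the seed (bases 2 to 8) in capitals. The 7 seeds all differ from each other.
miR-1906: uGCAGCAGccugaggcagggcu
miR-770-5p: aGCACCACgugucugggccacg
miR-770-3p: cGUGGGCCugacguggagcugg
miR-135a-5p: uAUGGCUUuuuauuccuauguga
miR-135a-2-3p: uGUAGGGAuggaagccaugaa
miR-1251-5p: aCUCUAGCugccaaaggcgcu
miR-1251-3p: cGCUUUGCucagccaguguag

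Six3os1 (ENSMUSG00000093460) lies at chr17:85600651-85618398, minus strand, and overlaps the plus-strand homeobox gene Six3 by 4791 bases. It was at 114, 108 and 103 CPM in the WT libraries and at 97.0, 117, 85.7, 83.0 and 83.5 CPM in KO 2 to KO 6. WT and KO 3 were the 4 highest libraries, and KO 4 to KO 6 were the 3 lowest. Over all libraries the log2 fold change was -0.21 (SE 0.12, 95% interval -0.48 to 0.05, adjusted p = 0.268). For KO 2 and KO 3 it was -0.02 (adjusted p = 0.955), and for KO 4 to KO 6 it was -0.35 (adjusted p = 0.000558). Without KO 3 it was -0.30 and passed (adjusted p = 0.0323), in a fit that called 3992 of 19920 tested genes.

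Six3, on the opposite strand, averaged 106 ± 4.14 CPM in the 3 WT and 112 ± 9.27 CPM in the 5 KO libraries (± SD), with a log2 fold change of 0.08 (adjusted p = 0.576), and 0.06 in KO 4 to KO 6 (adjusted p = 0.565). With the strand of counting unknown, reads of the overlap may be shared by the 2 genes. Of 11 tested protein-coding genes near the RNAs none was called in edgeR's test over all libraries, against 7.58% of all tested genes, and the smallest p belonged to Frmd8, near Neat1, with a log2 fold change of 0.47 (adjusted p = 0.138). Ltbp3, on the same stretch of chromosome 19, had 0.22 (adjusted p = 0.173). The median of these neighbours was 0.13, with 9 of 11 values above 0. In KO 4 to KO 6, 4 of the 11 were called higher, Frmd8 (0.67, adjusted p = 0.00151) and Ltbp3 (0.29, adjusted p = 0.0149) among them, and 2 lower, against 22.3% and 20.5% of all tested genes.

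Tug1 (ENSMUSG00000056579) lies at chr11:3639785-3649673, minus strand, and shares 483 bases with Morc2a on the opposite strand. Tug1 was at 176, 174 and 195 CPM in the WT libraries and at 223, 177, 140, 129 and 140 CPM in KO 2 to KO 6. KO 2 was the highest of all libraries and KO 3 lay within WT, while KO 4 to KO 6 were the 3 lowest. The log2 fold change over all libraries was -0.16 (SE 0.17, 95% interval -0.54 to 0.21, adjusted p = 0.559), a mean of opposite values: 0.14 in KO 2 and KO 3 (adjusted p = 0.575) and -0.40 in KO 4 to KO 6 (adjusted p = 0.000296). It was -0.31 without KO 2 and -0.09 without KO 5. Morc2a had 0.11 (adjusted p = 0.432), and 0.12 in KO 4 to KO 6 (adjusted p = 0.149).

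Rmst (ENSMUSG00000112117) lies at chr10:92071037-92165170, minus strand, with 14 annotated transcripts of at most 2891 bases. It was the least counted of the 8, with 115, 153 and 130 counts in WT 1 to WT 3 and 75, 149, 77, 73 and 78 counts in KO 2 to KO 6. In scaled units these were 6.30, 7.19 and 5.77 CPM in WT and 3.26, 7.08, 3.79, 3.73 and 3.55 CPM in KO. Of the KO libraries 4 were below every WT library, and KO 3 was inside the WT range. The log2 fold change was -0.58 (SE 0.25, 95% interval -1.14 to -0.03), its unadjusted p was 0.0407 and its adjusted p 0.163. For KO 2 and KO 3 it was -0.32 (adjusted p = 0.613), for KO 4 to KO 6 it was -0.79 (adjusted p = 0.00151), and without KO 3 it was -0.83 (adjusted p = 0.00614). The fit without KO 3 called 3992 of 19920 tested genes. KO 3 was also the library with 4.98% lens transcripts, and the part of this in its Rmst level was not tested. Of the gene's 31-base words 33.6% occur in another annotated gene, the highest share of the 8, and whether this touched its counts was not tested.

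In KO 4 to KO 6, 4 of the 8 RNAs were called lower (Snhg11, Tug1, Six3os1 and Rmst) and none higher. In that comparison 42.8% of all tested genes were called, 20.5% lower and 22.3% higher. All 3 of these libraries were below every WT library in 26.5% of tested genes and above in 25.9%. In KO 2 and KO 3, none of the 8 was called, where 0.891% of all tested genes were, 0.267% lower and 0.624% higher. In edgeR's fit of KO 2 and KO 3 the unadjusted 95% interval lay below 0 for Snhg11, Meg3 and Miat.

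**Figure D3:**
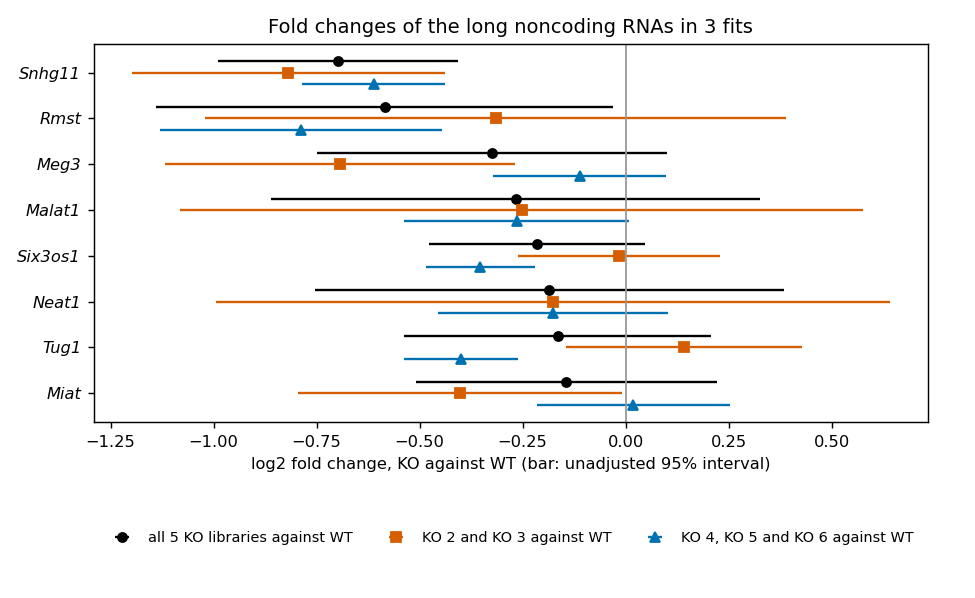
Log2 fold changes of KO against WT (horizontal axis) with unadjusted 95% intervals for each RNA in 3 fits: all 5 KO libraries (black), KO 2 and KO 3 (orange) and KO 4 to KO 6 (blue). Snhg11 has all 3 intervals below 0, and Tug1 has values of opposite sign in the 2 sets of KO libraries, 0.14 and -0.40.

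Snhg11 (ENSMUSG00000044349) lies at chr2:158375638-158386145, plus strand. RefSeq gives it as a long noncoding RNA, while GENCODE M21 types the gene as protein coding. It is a host gene: snoRNAs, which guide chemical modification of other RNAs, are cut out of its introns. The annotation places 2 snoRNA genes of 133 bases within it, Gm25187 at chr2:158378222-158378354 and Gm25129 at chr2:158379534-158379666, neither of which overlaps an exon of its longest transcript. Gm25187 overlaps 1 exon of another annotated transcript of the gene. They are shown to state what the host carries. Both carry AGAGGA, which has the form ANANNA of the H box, and end in ACA, the layout of H/ACA snoRNAs, and these letters are in capitals. Position by position they are 42.1% identical. Neither has a row in the table, so their own levels were not analysed here.
Gm25187: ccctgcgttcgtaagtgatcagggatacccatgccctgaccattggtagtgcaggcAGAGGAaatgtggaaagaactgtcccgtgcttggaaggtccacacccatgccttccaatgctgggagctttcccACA
Gm25129: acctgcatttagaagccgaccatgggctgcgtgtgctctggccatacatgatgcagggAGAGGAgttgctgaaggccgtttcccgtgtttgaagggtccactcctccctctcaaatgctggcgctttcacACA

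Snhg11 stood at 453, 367 and 411 CPM in the WT libraries. It was 196 CPM in KO 2, 269 CPM in KO 3, 290 CPM in KO 4, 260 CPM in KO 5 and 249 CPM in KO 6. The groups did not overlap, and the gap between the lowest WT and the highest KO library was wider than the SD of either group. WT averaged 410 ± 42.9 CPM (SD, n = 3) and KO averaged 253 ± 35.0 CPM (SD, n = 5). This gave a log2 fold change of -0.70 (SE 0.13, 95% interval -0.99 to -0.41), a ratio of 0.616 (0.503 to 0.754), with an adjusted p of 0.0174. Snhg11 was the 1 of the 8 called in edgeR's test over all libraries, where 7.58% of all tested genes were called, and the 1 with every KO library below every WT library, which held for 10.1% of all tested genes. Its log2 fold change was -0.82 in KO 2 and KO 3, which did not pass (adjusted p = 0.0682), and -0.61 in KO 4 to KO 6, which did (adjusted p = 7.41e-05).

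The call needed all 3 WT libraries: without WT 1 the log2 fold change was -0.62 (adjusted p = 0.105), without WT 2 -0.76 (adjusted p = 0.0615) and without WT 3 -0.70 (adjusted p = 0.0783). Few genes were called in these 3 fits: 132, 135 and 199, against 1529 over all libraries. Losing the call there is thus not particular to Snhg11. The Snhg11 call held without any 1 of the KO libraries, and was lost in 3 of the 10 fits without 2 KO libraries. Markers of the retinal cell types are given beside this result, and over all tested genes 2.84% were called lower and 4.74% higher. Ganglion cell markers summed to 1089 to 1196 CPM in WT and 1061 to 1481 CPM in KO, with none of 8 called in edgeR's test, and amacrine and horizontal cell markers to 1397 to 1467 CPM and 1353 to 1644 CPM, with 1 of 11 called lower (Calb1). Müller glia markers summed to 4561 to 4761 CPM in WT and 4928 to 6974 CPM in KO, with 3 of 9 called higher, and microglial markers to 52.8 to 57.8 CPM and 61.5 to 82.1 CPM, with 2 of 8 called higher. Endothelial and pericyte markers summed to 221 to 237 CPM in WT and 306 to 383 CPM in KO, with all 7 values above 0 and 2 called higher (Kdr and Pdgfrb). Cone markers summed to 1067 to 1291 CPM in WT and 784 to 994 CPM in KO, so that every KO sum was below every WT sum. The same order held for the sums of the nuclear speckle proteins and of the other snoRNA host genes listed below. Sums of Müller glia, microglial and endothelial markers had the opposite order. Of the 9 cone markers 3 were called lower and 1 higher, and their median log2 fold change was -0.47. Of 9 bipolar cell markers 1 was called lower (Gng13, log2 fold change -0.81), and of 11 rod markers 1 was called higher (Sag, 0.87). The part of these in the result was not tested, and in bulk tissue fewer cells of a type and less RNA per cell cannot be told apart.

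The promoter of Snhg11 is shown because this is the RNA whose level differed. The 300 bases at chr2:158375463-158375762, plus strand, from RefSeq (GRCm38.p6) hold 21 CpG dinucleotides and 1 copy of the E-box CAGCTG, in capitals. The copy is 61 bases before the RefSeq start. GENCODE M21 starts the gene earlier, at 158375638, so by that start the copy lies inside the gene. CAGCTG, which is its own reverse complement, occurs in 16.3% of 32851 promoters of this length. The other letters searched on either strand were TGACGTCA (the CRE), TATAAA (the TATA box), GGGCGG (the core of a GC box), CCAAT (the CCAAT box) and CACGTG (another E-box), and none was in this window.
Snhg11 promoter: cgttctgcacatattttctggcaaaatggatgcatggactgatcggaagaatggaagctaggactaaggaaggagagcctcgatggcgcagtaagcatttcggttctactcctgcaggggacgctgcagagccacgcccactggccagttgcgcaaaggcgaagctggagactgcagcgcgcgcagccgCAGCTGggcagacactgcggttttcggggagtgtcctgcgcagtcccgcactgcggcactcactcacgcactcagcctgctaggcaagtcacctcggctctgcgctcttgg

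Promoters were matched for 6 of the 8 RNAs, all but Neat1 and Rmst. CAGCTG was also in the Malat1 promoter, 41 bases after the start. GGGCGG was in those of Miat, Tug1 and Six3os1, and in 35.7% of all promoters. CCAAT was in those of Meg3 and Six3os1, and in 37.4% of all promoters. The Tug1 promoter was the richest in CpG of the 6, with 37. None of the letters searched was in all 6.

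Other snoRNA host genes were read as a list of 18 symbols, of which 17 were in the table. They filled 18 entries, all tested, since Snhg4 had 2 Ensembl identifiers, and counts below are of entries. None was called in edgeR's test over all libraries, against 7.58% of all tested genes, and 15 of the 18 values were below 0, with a median of -0.29 that may be set beside -0.70 for Snhg11. The smallest p-values were those of Snhg3, Snhg17 and Snhg5. Snhg3 averaged 12.6 ± 1.72 CPM in the 3 WT and 7.77 ± 1.98 CPM in the 5 KO libraries (± SD), with a log2 fold change of -0.70 and an adjusted p of 0.0694. Snhg17 had -0.33 (adjusted p = 0.0759) and Snhg5 -0.44 (adjusted p = 0.0917). In 5 of the 18 every KO library was below every WT library, against 10.1% of all tested genes. In KO 4 to KO 6, 8 were called lower and none higher, against 20.5% and 22.3% of all tested genes. In edgeR's test of KO 2 and KO 3 none was called, against 0.891% of all tested genes.

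A list of 40 other long noncoding RNAs had 31 members in the table, all tested. Of these 2 were called lower and none higher, against 2.84% and 4.74% of all tested genes, 22 of the 31 values were below 0, and the median was -0.23. The called genes were Rian, above, and Mir124-2hg, a host of miR-124, the abundant neuronal microRNA. Mir124-2hg was at 1311, 1311 and 1288 CPM in the WT libraries and at 672, 940, 531, 532 and 547 CPM in KO 2 to KO 6. All KO libraries were below all WT libraries, with KO 3 the nearest, and the log2 fold change was -1.02 (SE 0.18, adjusted p = 0.0150). It was -0.69 in KO 2 and KO 3 (adjusted p = 0.112) and -1.27 in KO 4 to KO 6 (adjusted p = 2.60e-08). Mir124a-1hg, a second host of miR-124, had the same order of groups, 1220 ± 102 CPM in the 3 WT and 820 ± 186 CPM in the 5 KO libraries (± SD), and its log2 fold change of -0.57 did not pass (adjusted p = 0.0804). Mir9-3hg, a host of miR-9, had -0.65 (adjusted p = 0.100), Otx2os1, opposite the photoreceptor gene Otx2, had -0.29 (adjusted p = 0.105), and Mir100hg had -0.37 (adjusted p = 0.119). In KO 2 and KO 3, 1 of the 31 was called, A330023F24Rik, with a log2 fold change of -1.22 (adjusted p = 0.0246), where 0.267% of all tested genes were called lower and 0.624% higher. In KO 4 to KO 6, 9 of the 31 were called lower and 1 higher, against 20.5% and 22.3% of all tested genes.

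All 8 RNAs of the set had fitted values below 0, with a median of -0.24, against 0.00 (0.000726) over all tested genes. Genes that GENCODE M21 types as long noncoding, a class looked at after the values had been seen, had a median of -0.16 over 2209 tested genes, with 100 called lower and 35 higher. Among those whose mean log2 CPM reached 3, 41 of 322 were called lower (12.7%) and 15 higher (4.66%), with a median of -0.22. Among protein-coding genes at the same floor, 328 of 10601 were called lower (3.09%) and 777 higher (7.33%), with a median of 0.04. The class of 322 itself holds Malat1, Neat1, Meg3, Miat, Six3os1 and Tug1. Its median GC content was 46.6%, against 49.4% for the protein-coding genes at that floor. The negative median of the 8 was thus near that of well-counted long noncoding genes as a class. No property particular to the 8 can be read from their median.

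The libraries did not contribute equally. KO 2 was the lowest of the 8 libraries for 6 of the 8 RNAs, all but Six3os1 and Tug1, and the highest for Tug1. Over all tested genes KO 2 was the lowest library in 20.4% and the highest in 18.2%. Relative to the WT mean, KO 2 was at -1.19 log2 units for Malat1, -1.07 for Neat1, -1.06 for Snhg11, -0.98 for Rmst, -0.92 for Meg3 and -0.63 for Miat. KO 3, the other library of its set, was above the WT mean for Malat1 (0.31), Neat1 (0.37), Rmst (0.14) and Six3os1 (0.11). Together the 8 RNAs took 0.166% of the counts of KO 2, 0.241% in KO 5 and 0.315% to 0.394% in the other 6 libraries. KO 2 was also the deepest library and had the highest summed markers of the 8 libraries for rods (62475 CPM), bipolar cells (1601 CPM), amacrine and horizontal cells (1644 CPM), ganglion cells (1481 CPM), Müller glia (6974 CPM) and microglia (82.1 CPM). Their part in these levels was not tested.

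**Figure D4:**
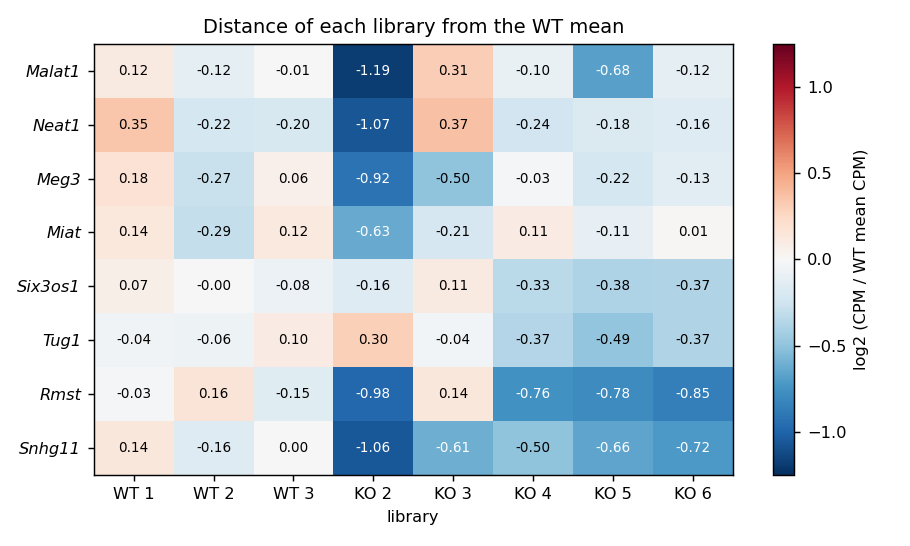
Log2 ratio of each library's CPM to the WT mean (colour and printed value) for the 8 RNAs (rows) in the 8 libraries (columns), red above and blue below the WT mean. The KO 2 column is darkest for Malat1 (-1.19), and the Snhg11 row is blue in all 5 KO libraries, from -0.50 to -1.06.

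The level per kilobase of the longest annotated transcript allows the RNAs to be set in order in WT retina. Malat1 was first with 311 CPM per kilobase, followed by Snhg11 with 70.0, Meg3 with 39.9, Tug1 with 27.0 and Six3os1 with 19.3. Miat had 3.43, Rmst 2.22 and Neat1 1.46 CPM per kilobase, below the median of 5.13 over 18028 annotated tested genes. On this scale Malat1 ranked 83 of these genes, the next 4 RNAs ranked 605 to 3239, and Miat, Rmst and Neat1 ranked 10494 to 12980, so not all 8 were abundant by it. The WT ranges of neighbours in this order did not overlap. Over all 8 libraries the ranges overlapped for every pair of neighbours but Malat1 and Snhg11, and Six3os1 and Miat. The order depends on which transcript is expressed, which gene counts do not show. By the median length of the annotated transcripts, a scale chosen after seeing the data, Malat1 was again first, Meg3 went above Snhg11, Six3os1 above Tug1 and Neat1 above Rmst. On that scale Miat had 42.4, Neat1 15.0 and Rmst 8.72 CPM per kilobase, and other genes were not put on it, so whether these 3 count as abundant depends on the length used.

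GC content moved with the fold changes. Across 18028 genes, GC content of the longest transcript and the log2 fold change had a Spearman's rho of 0.459 (genes are not independent replicates), and it was 0.169 for KO 2 and KO 3 and 0.534 for KO 4 to KO 6. The 8 RNAs ran from 37.9% GC (Tug1) to 55.1% (Miat), and Snhg11 was at 44.8%, where the median gene was at 49.1%. With a per-library offset for GC content, Snhg11 kept its call at -0.59 (adjusted p = 0.0380). In the same fit Tug1 turned to 0.16 (adjusted p = 0.399), Malat1 went to -0.08 (adjusted p = 0.889) and Rmst to -0.38 (adjusted p = 0.319), whereas Miat went to -0.34 (adjusted p = 0.181) and Six3os1 to -0.31 (adjusted p = 0.192). What links GC content and fold change in these libraries was not tested.

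**Figure D5:**
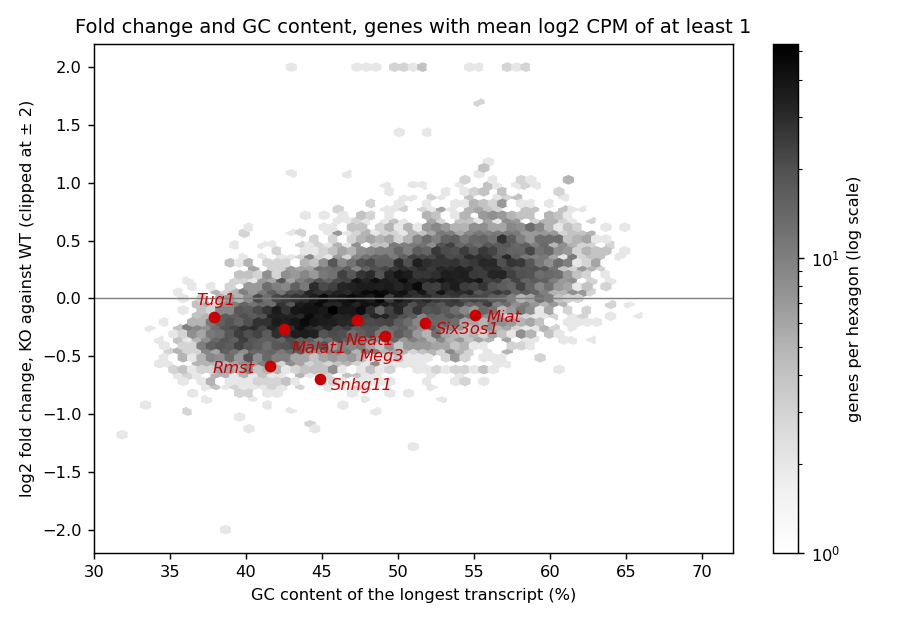
Log2 fold change of KO against WT (vertical axis, clipped at ± 2) against the GC content of the longest transcript in percent (horizontal axis), for genes whose mean log2 CPM reached 1; grey hexagons count genes on a log scale and red points are the 8 RNAs. The cloud rises with GC content (Spearman's rho 0.459 over all annotated tested genes), and Snhg11, at 44.8% GC and -0.70, lies at its lower edge.

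For each RNA the genes with the most similar levels over the 8 libraries were taken by Pearson's r of log2 CPM, among about 10600 well-counted genes. With 8 libraries and so many genes, high values of r arise readily, and they are given as a description. The level of Snhg11 was most like that of Vegfa, the vascular growth factor gene (r = 0.991), and of Ddx17, an RNA helicase gene (r = 0.984). Vegfa itself was called lower (log2 fold change -0.38, adjusted p = 0.0317), and Ddx17 had -0.30 (adjusted p = 0.0761). Malat1 was most like Airn, itself a long noncoding RNA (r = 0.978), and Nktr (r = 0.976). Tug1 was most like Ric1 (r = 0.997) and Map9 (r = 0.991), Six3os1 like the chloride cotransporter gene Slc12a2 (r = 0.991) and Cd2ap (r = 0.986), and Rmst like Hmgn3 (r = 0.990) and Med21 (r = 0.983). Meg3 was most like Mettl25b (r = 0.989) and Gnpda1 (r = 0.963), Miat like AI839979 (r = 0.973) and Abcc5 (r = 0.963), and Neat1 like Psg16 (r = 0.974) and Casp2 (r = 0.941). No gene was on the list of more than 1 of the RNAs.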

How the data were processed

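RNA sequencing of retina gave 8 libraries, 3 labelled WT and 5 labelled KO. Per the submitters' processing notes, Trim Galore, Salmon 1.10.2, DESeq2 and the GRCm38 build were used. The authors deposited estimated counts per gene as whole numbers, used here unchanged. Each of the 26824 genes had a total of at least 16, so less counted genes had been removed. Capture of RNA (poly(A) selection or rRNA depletion), strand and annotation release are not given in the sources used here. A count of 3, taken as the floor, equals 0.119 to 0.169 CPM.

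Counts were scaled by TMM in edgeR 4.0.16 (R 4.3.3), filtered with filterByExpr and compared with glmQLFit and glmQLFTest, WT against KO with no covariate, over 20167 genes with Benjamini-Hochberg adjustment. Standard errors were derived from F statistics. The steps were tested on simulated counts. No pair of libraries within a group agreed within sampling noise (chi-square per degree of freedom at least 5.38). All 5 KO libraries were used, since the 2 that the authors left out are not named. GENCODE M21 (GRCm38) held 22121 of the genes, and gave positions, GC content, lengths and transcript sequences. Promoters and microRNAs are from RefSeq tables.

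The named genes are the 8 RNAs, Kcnv2, called genes of the lists, the 6 other long noncoding RNAs and 3 genes of each further list with the smallest p-values, and 2 genes of most similar level for each RNA. Mirg, Six3, Morc2a, A330023F24Rik, Srrm2, Sf1, Ddx39b, Celf3, the called marker genes and the genes under other observations are named outside this rule, after their values were seen. A gene that met the rule is not reported here. The RNAs and lists were chosen with earlier results of these data known. Alternatives were other scalings, DESeq2 1.42.0, voom with quality weights per library in limma 3.58.1, and robust estimation. Further ones were no filter, GC and length offsets, a replicate block, and fits without 1 or more libraries.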

Additional observations from a re-analysis of the deposited data

Results flagged for a closer look

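The level of Rmst in KO 3 stood away from the other KO libraries. On the log2 CPM scale the gap between KO 3 and the next KO library was 0.805 of the whole range of the 5 KO libraries, above the limit of 0.71 (Dixon's 95% critical value) for a group of 5. KO 3 was at 7.08 CPM, inside the WT range of 5.77 to 7.19 CPM, and the other KO libraries were at 3.26 to 3.79 CPM. The gap was examined for 9 genes, the 8 RNAs and Kcnv2, and chance flags about 1 in 20 groups, or 0.45 of 9.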

How the results depend on the processing

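Snhg11 kept its direction in all 30 alternatives, from -0.82 to -0.58, and its call in 21. The 18 fits that left out 1 library or 2 KO libraries gave -0.80 to -0.58 for it. Besides the fits without a WT library, it did not pass in KO 2 and KO 3 (-0.82), in a replicate block on WT 2, WT 3, KO 2 and KO 3 (-0.76, adjusted p = 0.219) or in the same 4 libraries with no block (-0.74, adjusted p = 0.294). It also failed without KO 4 and KO 5 (-0.78), KO 4 and KO 6 (-0.76) or KO 5 and KO 6 (-0.70).

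Both groups have libraries numbered 2 and 3. Departures from the group mean had a correlation of -0.0044 between WT 2 and KO 2, and of -0.24 between WT 3 and KO 3. Each value rests on 1 pair of libraries, so it cannot show whether a common number means common handling. That was not tested. The block gave 52 called genes, against 14 without it. Over all genes the count of 1529 was 3066 in the DESeq2 Wald test and 8248 in limma voom with quality weights per library. Test and weights changed together there, and voom without weights was not among the alternatives. The count was 180 in KO 2 and KO 3, 8416 in KO 4 to KO 6, and 118 to 8416 over those 18 fits, which include KO 4 to KO 6. Without 1 library it ran from 132 to 3992. By library size alone 566 genes were higher and 787 lower, where TMM gave 956 and 573.

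Directions reversed for Tug1 with the GC offset (0.16), the block (0.11), the same libraries unblocked (0.12) and KO 2 and KO 3 (0.14). They reversed for Six3os1 with the block (0.016) and without it (0.022), and for Neat1 in those libraries with no block (0.033). The 18 fits gave -0.44 to 0.037 for Neat1, -0.60 to 0.051 for Malat1 and -0.30 to 0.019 for Miat, the last in KO 4 to KO 6 (0.019). In KO 2 and KO 3 Miat had -0.40. Meg3 and Rmst kept their sign in all 30 alternatives. In limma voom with quality weights, which called 8248 genes, Six3os1 (-0.34, adjusted p = 0.00280), Tug1 (-0.36, adjusted p = 0.00631) and Rmst (-0.73, adjusted p = 0.00219) also passed. The causes were not tested. With 3 and 5 libraries, the unadjusted 95% intervals of the 7 RNAs that did not pass lie between -1.14 and 0.38.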

Other observations

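Sex is not given for these mice. Xist, the long noncoding RNA of the inactive X chromosome and a member of the list of other long noncoding RNAs, was at 0.400 CPM in WT 3 and at 1541 to 2826 CPM in the other 7 libraries. WT 3 was thus the 1 library with low Xist, so the WT group was mixed in this and the KO group was not. The Snhg11 level of WT 3, 411 CPM, lay between those of WT 1 and WT 2. With 1 such library this cannot show whether sex affected the level, and the part of sex in the results was not tested.

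Sox2ot, which spans the gene of the neural factor SOX2, was at 46.6 CPM in KO 3 and at 8.86 to 13.4 CPM in the other 7 libraries. Oip5os1, an abundant cytoplasmic RNA also named Cyrano, followed the order of Tug1: it was highest in KO 2 (969 CPM), at 785 to 822 CPM in WT and KO 3, and at 512 to 576 CPM in KO 4 to KO 6 (log2 fold change of these 3 against WT -0.55, adjusted p = 2.11e-05). H19, an imprinted RNA of early development, was at 4.70 CPM in KO 5, 2.82 CPM in KO 6 and 0.443 to 1.09 CPM in the other 6 libraries. These genes were picked after their values were seen.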
